A study of Drosophila melanogaster with 7 samples.

Results

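Heat shock chaperone transcripts were followed in 7 libraries of Drosophila melanogaster brain by 3' RNA-seq. The genes were Hsp22, Hsp23, Hsp26 and Hsp27 (small heat shock proteins), Hsp68, Hsp70Aa, Hsp70Ab and Hsp70Bc (inducible Hsp70 class), Hsp83 (the fly Hsp90) and DnaJ-1 (an Hsp40). They make up 10 of the 14476 intact gene lines of the deposited table. Over the 7 libraries, 10 of 10 passed the minimum mean of 10 normalized counts set for tests. Hsp27, Hsp70Aa and Hsp70Ab, with control means of 8.08, 7.69 and 6.95, passed only through the knockdown libraries. They were chosen on readout values: the normalized counts of these same libraries, where earlier results showed heat shock genes to be higher in knockdown brains, possibly through 1 library. Their difference between knockdown and control, and between the 2 knockdown libraries, is therefore given as a description with no test. Control flies (5 libraries) carried Actin-GAL4 with UAS-sh8MM, and knockdown flies (2 libraries) carried Actin-GAL4 with UAS-sh-circMbl, a short hairpin against the circular RNA of muscleblind. Both genotypes thus shared a GAL4 driver from an actin promoter that is active in nearly all cells, so the hairpins were not limited to the brain or to neurons. All library titles name day 3.

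The titles also carry a date code, a lane code and a number. The control libraries share a date code. Control replicates 2 and 3 have the lane code L5, and control replicates 1, 4 and 5 have L7. Both knockdown libraries have another date code and the lane code L2, so genotype, date and lane cannot be told apart. The title number is 1 for control replicate 1, 2 for control replicates 3 and 5 and knockdown replicate 1, and 3 for control replicates 2 and 4 and knockdown replicate 2. The labels do not say what the number stands for, or whether control libraries of the same number share RNA or animals, and the spread that p-values rest on here may be technical. Libraries held between 3260649 (knockdown replicate 1) and 5546121 (control replicate 1) reads in the lines used. One read was worth 0.778 to 1.30 normalized counts, and counting intervals cover counting error only.

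Heat shock proteins are chaperones that bind unfolded proteins. In flies, heat and other proteotoxic stress activate the transcription factor Hsf, which induces the small heat shock genes, the Hsp70 copies, Hsp68, Hsp83 and DnaJ-1. Small heat shock proteins hold unfolded clients, Hsp70 refolds them with its Hsp40 partners, and Hsp90 completes the folding of kinases and receptors. Hsp83 is also abundant in unstressed cells, whereas the Hsp70 copies are close to silent without stress.

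The small heat shock genes Hsp22 (FBgn0001223), Hsp26 (FBgn0001225), Hsp23 (FBgn0001224) and Hsp27 (FBgn0001226) lie together within 12.8 kb of chromosome arm 3L, from 9372931 to 9385694 on BDGP6, the dm6 assembly. Hsp26 is on the minus strand and the other genes of this cluster are on the plus strand. Hsp70Aa (FBgn0013275, 3R from 11954163 to 11956544, minus strand) and Hsp70Ab (FBgn0013276, 3R from 11958535 to 11960909, plus strand) are a divergent pair spanning 6.75 kb. Hsp70Bc (FBgn0013279) is at 3R from 12509076 to 12511461 and Hsp68 (FBgn0001230) at 3R from 24055080 to 24057310. Hsp83 (FBgn0001233) is at 3L from 3192969 to 3197059 and DnaJ-1 (FBgn0263106) at 3L from 5750029 to 5752189. In 7 of the 10 genes every annotated transcript has a single exon, against 15.3% of 13986 protein-coding genes in the same annotation. The exceptions were Hsp22, Hsp83 and DnaJ-1.

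Some of these counts cannot be assigned to 1 gene. The gene CG4456 overlaps Hsp22 on the same strand at its 3' end, and its counts equalled those of Hsp22 in 7 of 7 libraries. Among 7913 genes with at least 10 reads in a library, 46 shared all 7 counts with another gene. The Hsp22 values below may thus belong to either transcript. The Hsp70 copies are near-identical in sequence, and reads could be split among them. Hsp70Ba and Hsp70Bb reached at most 2.60 normalized counts in any library and Hsp70Bbb was listed at 0 in 7 of 7. On the opposite strand, CG3281 overlaps Hsp70Ab, CG14966 overlaps Hsp83, the pseudogene CR43483 overlaps Hsp27, and CG6000 and lncRNA:CR44097 overlap Hsp68. The counts of the last 3 were not analysed here. The strand setting of the counting is not given in the sources used here. CG3281 held 17.3 to 34.2 normalized counts in controls and 32.5 and 26.8 in knockdown replicates 1 and 2. CG14966 held 12.3 to 24.7 in controls and 42.9 and 30.4 in knockdown. Both are low beside the Hsp83 values and, for Hsp70Ab, beside knockdown replicate 1.

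Among the small heat shock genes, knockdown replicate 1 stood above every control, and knockdown replicate 2 stood among the controls. Hsp22, which encodes a mitochondrial small heat shock protein, held 43.6, 219.5, 31.0, 203.6 and 29.6 normalized counts in control replicates 1 to 5. It held 1275 in knockdown replicate 1 and 153.5 in knockdown replicate 2. The former was 12.1-fold above the control mean of 105.5 ± 97.2 (SD, n = 5), and the latter lay below control replicates 2 and 4 and above the other controls. Hsp26, a cytosolic small heat shock protein linked to lifespan in flies, held 189.8, 862.6, 246.7, 763.1 and 156.4 in the controls. It held 4953 and 630.9 in knockdown replicates 1 and 2. Control replicates 2 and 4 were again the high controls, and only knockdown replicate 1 exceeded them.

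Hsp23, a cytosolic member that is also made in unstressed nervous tissue, held 387.3, 564.4, 438.8, 606.4 and 390.2 in control replicates 1 to 5. It held 1462 in knockdown replicate 1, which was 3.06-fold above the control mean of 477.4 ± 101.8 (SD, n = 5). Knockdown replicate 2, at 482.3, was 1.01-fold that mean and thus within the control spread. Hsp27, a small heat shock protein that enters the nucleus, was measured with few reads, from 4 to 20 in a control library. It held 4.67, 6.40, 3.64, 22.4 and 3.29 normalized counts in the controls, and 94.9 and 17.1 in knockdown replicates 1 and 2. Control replicate 4 stood apart from the other controls for Hsp27 and was above knockdown replicate 2. Summed over the small heat shock genes, the controls held 145.0, 461.2, 187.2, 382.0 and 136.0 reads per 1000000 reads of the library (RPM). The sum was 1837 in knockdown replicate 1 and 318.6 in knockdown replicate 2, the latter below control replicates 2 and 4.

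**Figure D1:**
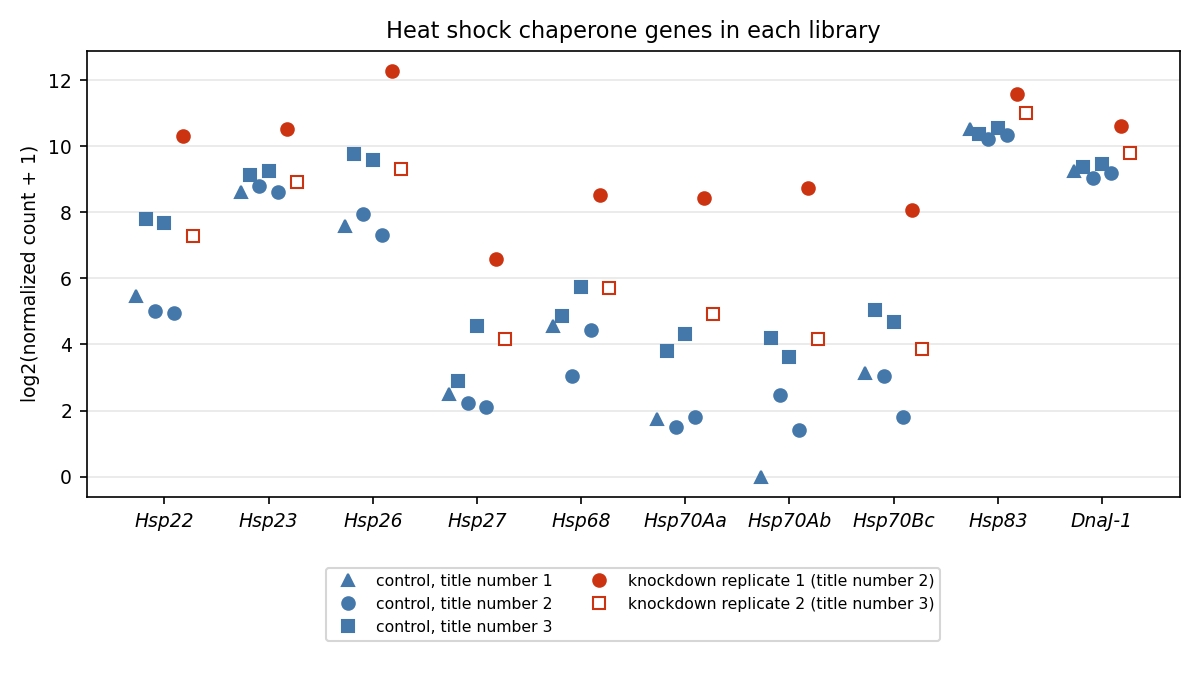
Normalized counts of the 10 genes in each of the 7 libraries, as log2(normalized count + 1) on the vertical axis. Blue symbols are control libraries, red symbols knockdown libraries, and the symbol shape gives the title number; knockdown replicate 1 is the highest point for 10 of 10 genes, whereas knockdown replicate 2 is above every control for 3 of them.

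In knockdown replicate 1 the inducible Hsp70 class was 13.9 to 61.3-fold the mean of all controls, against 3.06 to 12.1-fold for the small heat shock genes. That order depended on the controls used. Against the controls numbered 2, Hsp22 was 42.1-fold and Hsp68 26.1-fold. The 61.3-fold of Hsp70Ab rests on 0 to 19 reads in a control library. Hsp70Aa held 2.33, 12.8, 1.82, 19.0 and 2.47 normalized counts in control replicates 1 to 5, from 2 to 17 reads. It held 345.7 (95% counting interval 305.4 to 389.9) in knockdown replicate 1 and 29.2 (18.7 to 43.5) in knockdown replicate 2. Both knockdown values were above every control, but they differed from each other by 11.8-fold. Hsp70Ab held 0, 17.4, 4.55, 11.2 and 1.65 in the controls, where the 0 allows up to 2.33 normalized counts. It held 426.3 and 17.1 in knockdown replicates 1 and 2. Knockdown replicate 2 lay between control replicates 4 and 2, and knockdown replicate 1 was 24.5-fold above the highest control.

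Hsp70Bc, a copy from the other Hsp70 locus, held 7.78, 32.0, 7.28, 24.6 and 2.47 in the controls and 267.7 and 13.4 in knockdown replicates 1 and 2. Knockdown replicate 2 was 0.903-fold the control mean of 14.8 ± 12.8 (SD, n = 5) for this copy. Hsp68, a stress-induced relative of Hsp70, held 22.6, 28.4, 7.28, 52.6 and 20.6 in the controls. It held 363.9 and 51.2 in knockdown replicates 1 and 2, so that knockdown replicate 2 fell just under the highest control. Because reads can be split among copies, the Hsp70 copies were also summed. They held 2.34, 17.4, 3.55, 13.1 and 1.55 RPM in the controls. The sum was 245.4 (exact 95% interval 228.6 to 263.0) in knockdown replicate 1 and 14.8 (10.96 to 19.6) in knockdown replicate 2. On the summed scale, knockdown replicate 2 lay between control replicates 4 and 2.

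**Figure D2:**
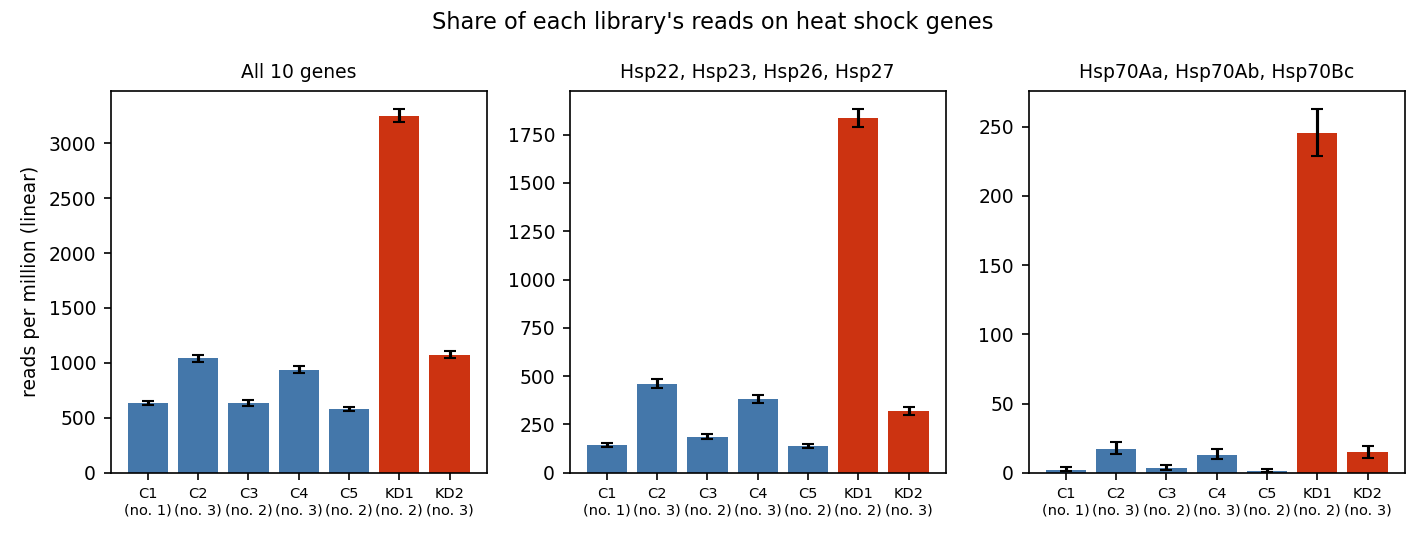
Vertical axes give reads per 1000000 reads of the library on all 10 genes, on the small heat shock genes and on the Hsp70 copies, with exact binomial 95% intervals that cover counting error only. Bars are control replicates 1 to 5 (C1 to C5, blue) and knockdown replicates 1 and 2 (KD1 and KD2, red), with the title number under each; the sum over all genes was 3251 in KD1 and 1076 in KD2, against 581.2 to 1040 in controls.

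Hsp83 and DnaJ-1 differed by smaller ratios, and for both the knockdown libraries did not overlap the controls. Hsp83, the cytosolic Hsp90, held 1470, 1323, 1178, 1514 and 1282 normalized counts in the controls. It held 3036 and 2055 in knockdown replicates 1 and 2. These were 2.24-fold and 1.52-fold the control mean. DnaJ-1, the Hsp40 that delivers clients to Hsp70, held 611.3, 661.3, 521.7, 708.2 and 587.7 in the controls. It held 1553 and 886.7 in knockdown replicates 1 and 2, which were 2.51-fold and 1.43-fold the control mean of 618.1 ± 71.2 (SD, n = 5). Only Hsp83, DnaJ-1 and Hsp70Aa were above every control in both knockdown libraries, 3 of 10 genes, against 16.6% of the 7287 genes tested.

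The knockdown mean stood above the control mean for 10 of 10 genes, by 0.84 (Hsp23) to 4.12 (Hsp70Ab) on the log2(normalized count + 1) scale, on which differences of low genes come out too small. The median difference over all 7287 genes was -0.02. That contrast chose the genes, so no call of it is given for them. Without knockdown replicate 1 the differences were 0.04 (Hsp23) to 2.29 (Hsp70Aa), with 0.31 for Hsp70Bc, 0.53 for DnaJ-1, 0.61 for Hsp83 and 0.87 for Hsp26. Without knockdown replicate 2 they were 1.17 (Hsp83) to 6.40 (Hsp70Ab). For Hsp70Aa and Hsp70Ab, with control means of 7.69 and 6.95 normalized counts, these log2 values also depend on the added 1.

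The difference between the knockdown libraries ran through the whole group. Knockdown replicate 1 was above every control for 10 of 10 genes, a property of 24.7% of the genes tested. Knockdown replicate 2 was above every control for 3 of 10, which 23.6% of the genes tested also were. Knockdown replicate 1 exceeded knockdown replicate 2 by at least 2-fold for 8 of 10, against 1.54% of the genes tested. Since this step was in view when the genes were chosen, nothing is read from the distance of these counts to the shares. The ratios of the first to the second were 8.31 for Hsp22, 3.03 for Hsp23, 7.85 for Hsp26, 5.56 for Hsp27 and 7.11 for Hsp68. They were 11.8, 25.0 and 20.0 for Hsp70Aa, Hsp70Ab and Hsp70Bc, and 1.48 and 1.75 for Hsp83 and DnaJ-1. The ratios of Hsp70Ab, Hsp70Bc and Hsp27 rest on 14, 11 and 14 reads in knockdown replicate 2. The library that is high in the heat shock genes cannot be set against a replicate of its own number and genotype, since there is 1 knockdown library of each title number.

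In the controls, the heat shock genes also varied, and there they followed the title number. Control replicates 2 and 4, the libraries numbered 3, come from different lane codes. Both were above the other 3 controls for 9 of 10 genes, a pattern found in 7.78% of the genes tested and described after the values were seen. Hsp83 was the exception. Controls numbered 3 exceeded controls numbered 2 by 6.98-fold in Hsp22, 4.03-fold in Hsp26, 7.42-fold in Hsp70Aa and 5.81-fold in Hsp70Bc. The ratio was 1.41-fold in Hsp23, 1.15-fold in Hsp83 and 1.23-fold in DnaJ-1. For Hsp70Aa and Hsp70Bc the controls numbered 2 had means of only 2.15 and 4.88 normalized counts, so those ratios are uncertain. In Hsp22 the log2 difference between numbers 3 and 2 was 2.79 within L5 and 2.74 within L7. Hsp26 had 1.80 and 2.28, and Hsp70Aa 2.29 and 2.53, in L5 and L7 respectively. In the low-count gene Hsp27 the same differences were 0.67 and 2.45.

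A limma fit to the control libraries alone, with terms for lane code and number 1, called 6 of the 10 genes between numbers 3 and 2 (adjusted p under 0.05), against 2.43% of all genes tested. Hsp22, Hsp23, Hsp26, Hsp68, Hsp70Aa and Hsp70Bc passed, the highest limma adjusted p among them being 0.00775 for Hsp70Aa. Hsp27, Hsp70Ab, DnaJ-1 and Hsp83 did not pass, with limma adjusted p from 0.133 to 0.455. That fit has 1 residual degree of freedom, and limma took the spread from all genes. With no filter on low values it called 0 of 10 genes (8 at an unadjusted p under 0.05). The filter used the mean over all 7 libraries, knockdown included. Hsp27, Hsp70Aa and Hsp70Ab, with control means of 8.08, 7.69 and 6.95, entered only through the knockdown libraries. Nothing is read from the calls of these genes, passed or not. The count of 6 of 10 includes them, so it is not read against the 2.43%. If the same-numbered controls share RNA, the agreement between lanes measures technical spread.

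The knockdown libraries ran the other way. There the library numbered 3 was below the library numbered 2 for 10 of 10 genes, with log2 differences of -3.05 (Hsp22), -2.97 (Hsp26), -3.52 (Hsp70Aa) and -4.22 (Hsp70Bc). The differences were smaller for Hsp23 (-1.60), Hsp83 (-0.56) and DnaJ-1 (-0.81). Number 3 was above number 2 in both control lane codes and below it in knockdown for 10 of 10 genes, against 10.6% of the genes tested. The knockdown part of this pattern was in view when the genes were chosen, and the pattern was described after the values were seen. The count is thus a description, and nothing is read from its distance to that share. Knockdown replicate 2 was below both controls of its own number for Hsp22, Hsp23, Hsp26 and Hsp70Bc, between them for Hsp27, Hsp68 and Hsp70Ab, and above both for Hsp70Aa, Hsp83 and DnaJ-1. It was above the other 3 controls for 10 of 10, an order whose share over all genes was not counted and from which nothing is read. Its ratio to the mean of the controls numbered 3 was 0.725 for Hsp22, 0.776 for Hsp26, 1.84 for Hsp70Aa and 1.45 for Hsp83. The ratio of knockdown replicate 1 to the mean of the controls numbered 2 was 42.1, 24.6, 161.2 and 2.47 for the same genes. The ratio of Hsp70Aa divides by 2.15 normalized counts, from 2 and 3 reads in control replicates 3 and 5, so its size is uncertain.

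**Figure D3:**
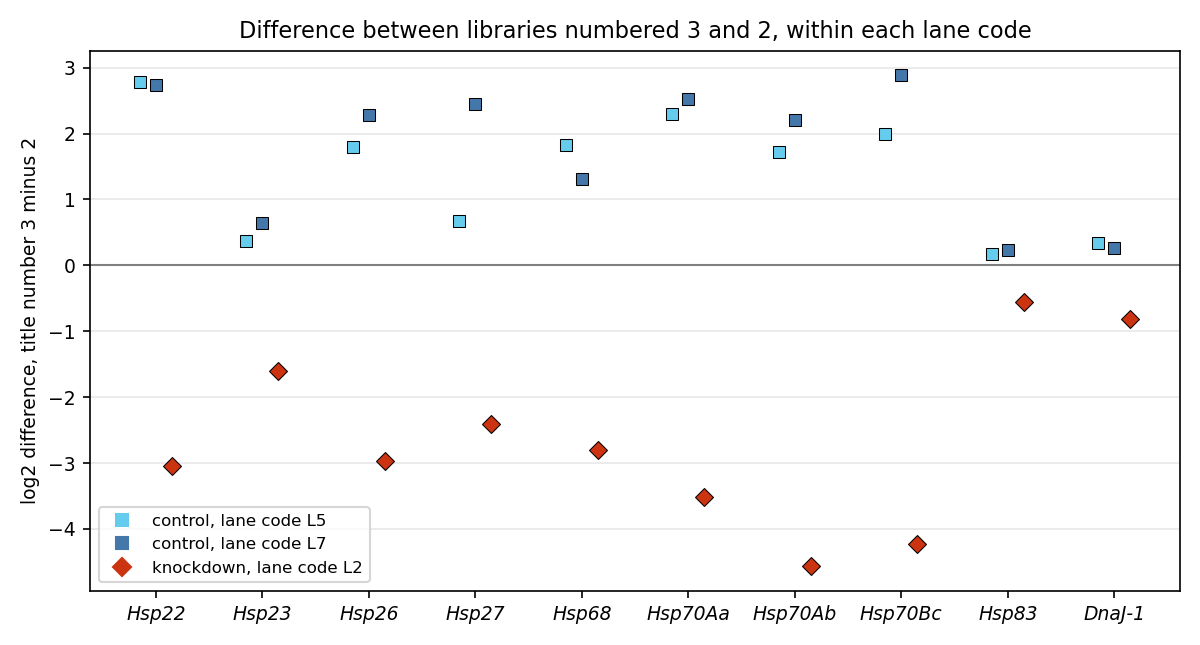
Log2 difference between the library numbered 3 and the library numbered 2 in each lane code, for each gene. Control pairs (L5 and L7, blue squares) lie above 0 for 10 of 10 genes, from 0.17 to 2.88, and the knockdown pair (L2, red diamonds) lies below 0 for 10 of 10, from -0.56 to -4.57.

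Over all 7 libraries, with control and knockdown pairs fitted together, the title number was called for 0 of the 10 genes by limma (adjusted p from 0.722 to 0.964), with 0.631% of genes called. None of the 10 passed at an unadjusted p under 0.05 there, and voom called 0 after adjustment and 2 before it. The L5 and L7 controls differed in 29% of the genes tested. By the same limma fit 0 of the 10 heat shock genes differed between these lane codes (adjusted p from 0.268 to 0.957, and 0 at an unadjusted p under 0.05, also by voom). With each control left out in turn, that count of heat shock genes reached 9. The fit of title number and lane code had 1 title term for both genotypes, whose differences ran in opposite directions for these genes. Its spread thus includes the step between the knockdown libraries, and neither count of 0 shows that title number or lane code had no effect. The difference between the knockdown and control pairs holds the step between the knockdown libraries that was in view when the genes were chosen, and it is given for them with no test.

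The genes moved together over the libraries. Pearson's r between log2 values of 2 of the genes lay between 0.792 and 0.987 over the 7 libraries, with a median of 0.924 over 45 pairs. Each of these values shares knockdown replicate 1 as its most extreme point.

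Other genes of the folding machinery were called about as often as all genes. Of 60 other genes of the heat shock and folding machinery listed by family, 48 were in the lines used and 41 were tested. In the limma comparison of knockdown with control, 2 of 41 were higher, 0 were lower and 39 did not pass, which is 4.88% called against 6.11% of all genes. Their median log2 difference was 0.085, against -0.022 over all genes. The median was -0.22 for 6 other small heat shock genes, 0.17 for 6 other Hsp70 class genes, 0.32 for 10 chaperonin subunits, -0.12 for 9 other Hsp40 genes and 0.25 for 8 co-chaperones. Both number 3 controls stood above the other controls for 3 of the 41, CG7409, Hsc70Cb and CG7130, against 7.78% of all genes tested. Knockdown replicate 1 was above every control for 12 of 41, against 24.7%.

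The called genes were Hsc70-3 and HIP-R. Hsc70-3, the BiP chaperone of the endoplasmic reticulum, held 688.3, 546.1, 523.5, 698.2 and 526 normalized counts in the controls and 1171 and 1116 in knockdown. The groups did not overlap and the knockdown libraries were alike, unlike those of the inducible Hsp70 copies. Its log2 difference was 0.95 ± 0.16 (SE; limma, adjusted p = 0.0154, and between 0.00098 and 0.186 under the alternatives). It did not pass with either knockdown library left out, nor with a replicate block by the number in the source name or in the title. HIP-R, a gene related to that of the Hsp70-interacting co-chaperone Hip, held 49.8, 67.7, 89.2, 45.9 and 46.9 in the controls and 149.5 and 168.1 in knockdown. Its log2 difference was 1.44 ± 0.27 (SE; limma, adjusted p = 0.0219, and between 9.77e-05 and 0.19 under the alternatives). It did not pass without control replicate 5, with either knockdown library left out, or with a replicate block by the title number. Reads could be split with its neighbouring copy HIP, which had a log2 difference of 0.85 and did not pass (limma, adjusted p = 0.137).

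The heat shock factor gene Hsf, which encodes the activator of the inducible genes, held 145.4, 175.6, 199.4, 181.3 and 156.4 normalized counts in the controls and 131.3 and 126.7 in knockdown. Both knockdown values were below every control, and the log2 difference of -0.40 ± 0.16 (SE) did not pass (limma, adjusted p = 0.151). Hsc70-4, the major constitutive Hsp70 of the cytosol, held 7706, 5147, 5035, 7971 and 6428 in the controls and 6730 and 6716 in knockdown. The knockdown libraries lay inside the control range for Hsc70-4 (log2 difference 0.08; limma, adjusted p = 0.834). The mitochondrial chaperonin Hsp60A had a log2 difference of 0.11 (limma, adjusted p = 0.631). The crystallin-related small heat shock gene l(2)efl had -0.17 (limma, adjusted p = 0.73).

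The gene stv encodes a BAG-domain co-chaperone of Hsp70. It held 473.7, 412.5, 328.7, 484.5 and 423.9 in control replicates 1 to 5 and 681.1 and 321.6 in knockdown replicates 1 and 2. As in 7 of the heat shock genes, knockdown replicate 1 was above every control and knockdown replicate 2 was not. The group difference was 0.15 (limma, adjusted p = 0.765). Among the 41, stv was the only one called for a difference between the knockdown and control pairs, against 1.14% of all genes tested, by -1.34 ± 0.20 on the log2 scale (SE; limma, adjusted p = 2.01e-08, and between 4.91e-09 and 0.154 under the alternatives). It did not pass with no filter on low values. The fit rests on 1 knockdown pair and has 1 residual degree of freedom, and limma took the spread from all genes.

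**Figure D4:**
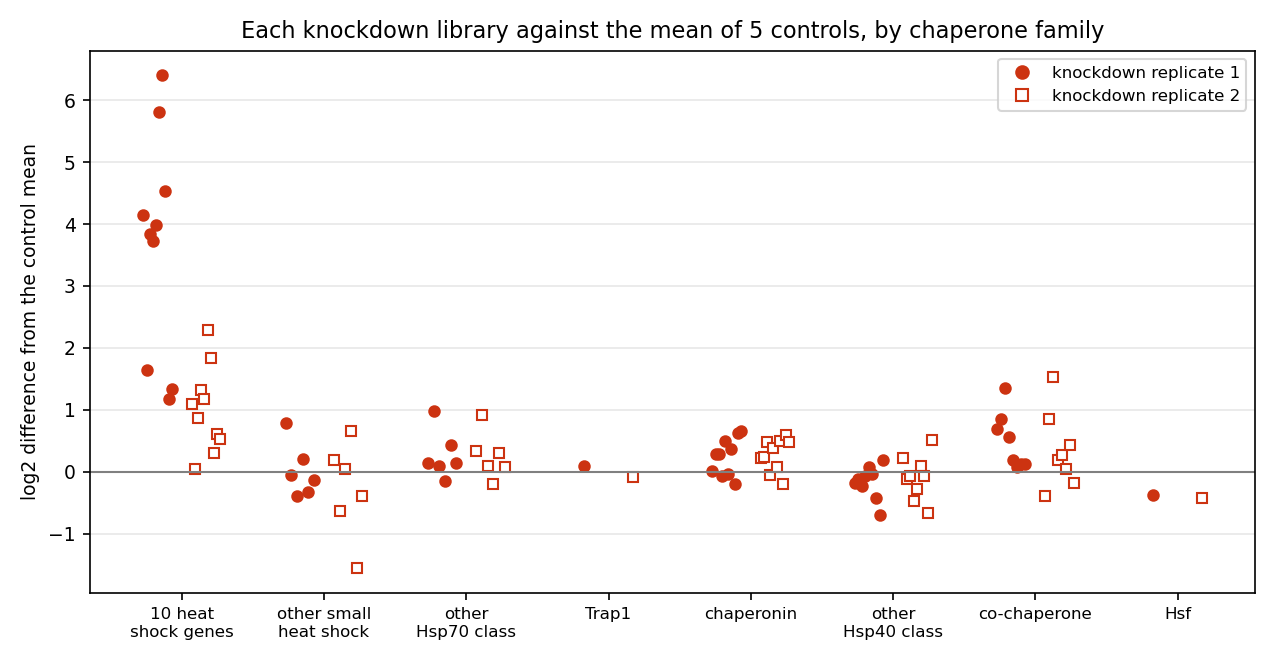
Log2 difference of each knockdown library from the mean of the 5 controls (log2(normalized count + 1) scale), for the 10 heat shock genes and for 41 other chaperone genes by family. Each point is a gene in knockdown replicate 1 (filled) or 2 (open); the heat shock genes reach 6.40 in replicate 1 and 2.29 in replicate 2, and other families have medians between -0.40 and 0.32 over both libraries.

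The genes most like the heat shock genes were looked for among 5073 genes with a mean of at least 50, by Pearson's r of log2 values over the 7 libraries. Beside CG4456, which has the counts of Hsp22, the nearest to Hsp70Aa were fit (0.960), CG1673 (Bcat, 0.957), E(Pc) (0.955) and mop (0.952). The fat body transcript fit held 28.0, 65.9, 25.5, 75.0 and 31.3 normalized counts in the controls and 367.8 and 210.7 in knockdown. It too was higher in control replicates 2 and 4 than in the other controls, but both knockdown libraries were far above them. The nearest to Hsp22 after CG4456 were GstE6 (0.951), v (0.940), Ndae1 (0.930) and Yp2 (0.923). Among the nearest to Hsp83 were Sap30 (0.973), mip120 (0.971), shot (0.971) and CG30497 (0.965). Knockdown replicate 1 was 2.64-fold the control mean for CG1673, 1.34-fold for mop, 1.39-fold for Sap30 and 1.29-fold for GstE6. It was the highest library for each gene named here, and r does not measure the size of a difference. These values of r are the highest picked from 5073 genes over 7 libraries, so they describe a ranking only.

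Markers of cell types and of tissue next to the brain were read beside these results, and in whole tissue fewer cells of a type and less RNA per cell cannot be told apart. The brain label was checked by neuronal markers, which were present in every library: the pan-neuronal gene elav held 1344 to 1701 normalized counts in controls and 1840 and 1794 in knockdown. Of 8 listed neuronal markers 6 were in the lines used, summing to 29814 to 39444 in controls and to 49914 and 41793 in knockdown replicates 1 and 2, and each was above 0 in every library. The higher sum came mostly from nSyb, a synaptic vesicle gene, with 4075 to 5326 in controls and 12461 and 11192 in knockdown. Syt1 (10351 in knockdown replicate 2) and Gad1 stood within the control range. Glial markers (5 of 7) summed to 56603 to 71109 in controls and 74800 and 81900 in knockdown replicates 1 and 2, nearly all of it Gs2 (52876 to 65812, against 70907 and 77716). The glial gene moody held 657.7 and 672.3 in knockdown replicates 1 and 2, against a lowest control of 680.1. For alrm the values were 664.2 and 761.3, against a lowest control of 763.1. Both genes were thus below every control, but in knockdown replicate 2 only just. The glial genes wrapper and nrv2 stood within the control range. Hemocyte markers (4 of 5) summed to 123.5 to 242.8 and 120.6 to 191.1, and muscle markers (7 of 7) to 1072 to 1990 and 820.1 to 1203.

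In the controls, the summed fat body and eye markers moved with the title number. Fat body markers (7 of 8, with Fbp1 at 0 or 1 read in each library) summed to 26932 to 35929 normalized counts in the controls numbered 3, to 14945 to 20692 in the other controls, and to 50224 and 44065 in knockdown replicates 1 and 2. Lsp2, fit, Yp1, Yp2 and Yp3 were each higher in knockdown replicate 1 than in knockdown replicate 2, and tobi was 66.3 and 68.2. Photoreceptor markers (10 of 12, none at 0 in all libraries) summed to 8781 to 9402 in the controls numbered 3 and to 4778 to 5503 in the other controls. Knockdown replicate 1 held 4951 and knockdown replicate 2 held 8812. The summed eye markers thus followed the title number in both genotypes. Singly, norpA did not, with 2068 (number 3) and 2200 (number 2) in L5 and 1945 and 1982 in knockdown. In L7 it held 2412 and 2318. Each other eye marker was higher in number 3 than in number 2 within each lane code. The summed fat body markers, like the heat shock genes, followed the title number in the controls and ran against it in knockdown. Both knockdown libraries were above every control in the fat body sum, whereas 7 of the 10 heat shock genes were above every control in knockdown replicate 1 only. The part of these tissues in the heat shock values was not tested. The host gene mbl held 3323, 3602, 4122, 3341 and 3430 in the controls and 2770 and 2304 in knockdown replicates 1 and 2. The library with the high heat shock values thus did not have the lower mbl level, and these 3' reads do not measure the circle itself.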

How the data were processed

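RNA of dissected brains was read from its 3' ends in bulk libraries adapted from CEL-seq2, per the labels' protocols. The submitters' processing notes name STAR and dm6. How reads were counted and normalized, on which annotation and strand, and whether molecular identifiers were used is not given in the sources used here. Values, named normalized counts, were taken as a signal deposited by the authors. In the intact lines every value was a whole multiple, within 0.01, of 1 step per library. These multiples are called reads, used for depth (3260649 to 5546121) and for exact 95% intervals, and a count of 0 allows 3 reads. Left out were 2139 lines that hold a stretch of another table, 1 line with a damaged name and 402 columns with no sample. Genes on those lines, among them Hop, the lncRNA Hsromega and Gp93, are not analysed here.

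Genes with a mean of at least 10 (7287) were fitted as log2(value + 1) with limma 3.58.1 in R 4.3.3 (lmFit, eBayes with trend), with Benjamini-Hochberg adjustment over all of them at 0.05. The fits were knockdown against control without covariates, title number and lane code in 1 fit with a term for number 1, and the same with the title term split by genotype. The planned edgeR test on recovered reads was not run, because the misplaced lines kept the column from being accepted as counts. A limma voom fit took its place. The fits were also run on simulated counts with the same dispersion for all genes and only planted differences. Those settings are simpler than these data, so that run does not show how often calls here are false. The genes followed, the lists, the patterns counted over libraries and the tests were chosen with earlier results of these data known. Named beside the 10 genes were the other chaperones that passed, Hsf, Hsc70-4, Hsp60A, l(2)efl, stv, the 5 genes with the highest r to each of Hsp70Aa, Hsp22 and Hsp83, mbl and defining markers. One gene that this rule names is not reported here. Other genes were named where a count was 5 or fewer, after their values were seen. Positions are from the Ensembl BDGP6 annotation. Of the symbols 11221 matched a current name, 3150 a synonym and 105 none. Whether each knockdown library deviates together with the controls of its number was checked, and it is given with the dependence on processing. No pair of libraries was merged.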

Additional observations from a re-analysis of the deposited data

Results flagged for a closer look

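For Hsp27, the highest of the 5 control values, 22.4 normalized counts in control replicate 4, stood apart from the other controls by a gap above the 95% critical value of Dixon's test (0.71). It was the only such control value among 18 genes checked, and chance gives about 1 in 20. It rests on 20 reads.

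The difference between libraries numbered 3 and 2 had opposite directions in control and knockdown brains for 10 of 10 heat shock genes. On the log2 scale, knockdown minus control, it was -5.81 for Hsp22, -2.10 for Hsp23, -5.01 for Hsp26 and -3.97 for Hsp27. It was -4.38 for Hsp68, -5.93 for Hsp70Aa, -6.53 for Hsp70Ab and -6.66 for Hsp70Bc. It was -0.77 for Hsp83 and -1.11 for DnaJ-1. The difference is given with no test, since the step between the knockdown libraries was in view when the genes were chosen, and there was 1 knockdown pair.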

How the results depend on the processing

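The knockdown minus control differences of the 10 heat shock genes, given with no test, kept their sign in 170 of 170 recomputations. They moved by more than the control SD in 20, those without knockdown replicate 1 or 2. The other results are counts of genes at a limma adjusted p under 0.05. Knockdown against control called 445 genes, but 281 with voom (added after seeing the data), 1082 against L5 controls alone, 2409 against L7 controls alone, 1158 with same-titled controls averaged, and 1 to 663 with 1 library left out. The lowest counts came without knockdown replicate 1 or 2 (1 each) and without control replicates 5, 4 and 1 (133, 177 and 202). The count of 2 other chaperones was 9, 16 and 7 against L5, against L7 and with averaging, and 0 to 3 with 1 library left out. With a replicate block it was 120 genes and 1 other chaperone (source-name number), or 51 and 0 (title number). Over the genes tested, deviations of a knockdown library and of a control with its number were weakly correlated (r from -0.029 to 0.14). The number was that of the source name or of the title. Controls that share a title number were not compared in this way. The title number called 46 genes, but 0 with no filter, 28 with a mean of at least 50, 177 in controls alone (0 there with no filter, added after seeing the data), 2 without the lane term and 46 to 404 with 1 library left out. Of the heat shock genes it called 0, but 6 in controls alone and 0 to 8 with 1 library left out. Lane code called 2114 genes, 446 with no filter and 1124 to 2601 with 1 library left out, and of the heat shock genes 0, with 0 to 9. The difference between pairs called 83 genes, 46 with voom and 0 with no filter. No call of it is given for the heat shock genes, because they were chosen with the step between the knockdown libraries in view. Without the filter, limma's prior degrees of freedom fell to 0.736. The edgeR alternative was not run, and the difference between pairs was not refitted with libraries left out. Counts of 0 to 35 reads in a control library limit Hsp27 and the Hsp70 copies. Hsp27, Hsp70Aa and Hsp70Ab passed the filter only through the knockdown libraries, also in the fit to controls alone.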
